A study of Mus musculus with 4 samples.

Results

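The genes described here are 10 genes of corticosteroid signalling: both corticosteroid receptors, Nr3c1 and Nr3c2, and 8 genes known as glucocorticoid response genes, Fkbp5, Sgk1, Tsc22d3, Ddit4, Zbtb16, Cdkn1a, Plin4 and Errfi1. They were taken by gene symbol from the table of raw gene counts, which holds 31060 genes, and all 10 were found and passed the filter on low counts. The 12 transcripts of Sgk1 were taken from the transcript table of 103309 transcripts. The measurement was RNA sequencing of mouse hippocampus after abdominal surgery. The surgery group (2 libraries, replicates 1 and 2) was from wild-type C57BL/6 mice of 12 months by the labels that had an exploratory laparotomy under sevoflurane, with ropivacaine injected at the incision, and whose hippocampus was taken on day 3 after the operation. The control group (2 libraries, replicates 1 and 2) was from wild-type mice of the same labelled age that had no operation and no anesthesia for one and are labelled day 0. Both groups were under anesthesia when the tissue was taken. Anesthesia and operation came together in the surgery group, so their shares in any difference cannot be told apart. Nothing in the labels says that the replicates of a group were separate animals, so the p-values measure the spread between these libraries, which may be technical.

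Glucocorticoids (corticosterone in the mouse) are released from the adrenal cortex in stress and pass into the brain. There they bind the glucocorticoid receptor, encoded by Nr3c1, and the mineralocorticoid receptor, encoded by Nr3c2, which are ligand-activated transcription factors held in the cytoplasm by chaperones until hormone binds. The hippocampus is known for carrying both receptors: the mineralocorticoid receptor has the higher affinity for corticosterone and is occupied at low hormone levels, while the glucocorticoid receptor is occupied at the daily peak and in stress. The receptors bind DNA as pairs at a palindrome of AGAACA and TGTTCT half-sites spaced by 3 bases. Transcripts of the response genes rise after hormone in many tissues and are used as a readout of the pathway, although most of them also respond to other signals such as hypoxia, DNA damage or insulin. Corticosterone itself was not analysed here.

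The levels of both receptors overlapped between the surgery and control groups. Of the 8 response genes, Ddit4, Errfi1 and Fkbp5 had lower levels in both surgery libraries than in both control libraries, Ddit4 by the widest margin, and none of the differences passed the test after adjustment over all genes. The 10 genes were chosen with earlier results of these data known, so their counts beside all genes are description and no test. Of the 10 genes, 8 had a log2 fold change below 0, surgery over control, where 49.9% of the 17236 genes tested did. With edgeR's quasi-likelihood test, 4 of the 10 (Ddit4, Errfi1, Tsc22d3 and Sgk1) were lower in the surgery group with an unadjusted p under 0.05 and 0 were higher, where 5.63% of all tested genes were lower and 4.33% were higher at that threshold. After Benjamini-Hochberg adjustment over all 17236 genes, 0 of the 10 passed an adjusted p of 0.05 in either direction, and 0% of all tested genes did. DESeq2 called 17 genes higher and 44 lower, with 0 of the 10 among them, but gave no adjusted p for Cdkn1a and Plin4. EdgeR with no filter on low counts called 1 of the 10, Ddit4, among 156 genes higher and 239 lower of 29672 tested. In 3 of the 10 genes (Ddit4, Errfi1 and Fkbp5) both surgery libraries lay below both control libraries, where 22.3% of all tested genes did so, and in 0 of the 10 they lay above, where 20.3% did. The median log2 fold change was -0.30 over the 10 genes, -0.33 over the 8 response genes and 0.00053 over all genes tested. In bulk tissue, fewer cells of a type and less RNA per cell cannot be told apart.

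**Figure D1:**
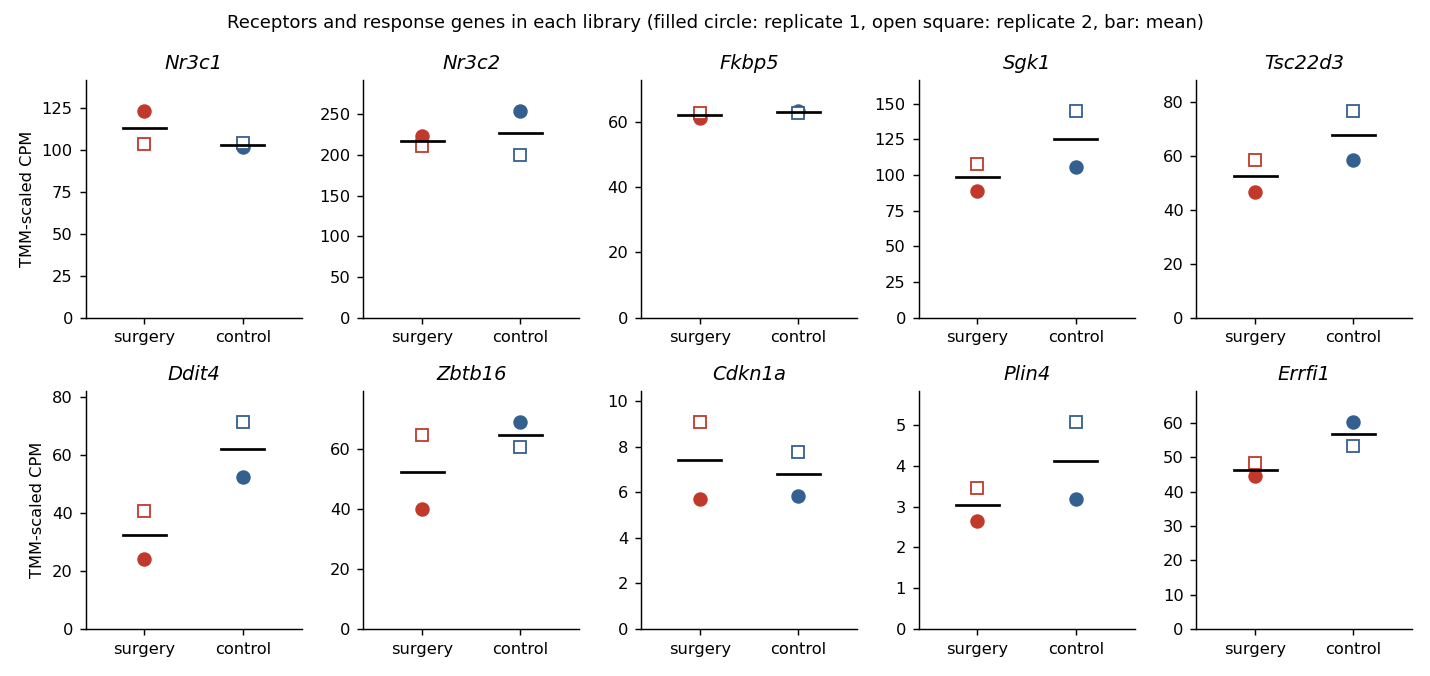
Level of each of the 10 genes in every library, in CPM (counts scaled to a common library size with TMM factors), with surgery on the left and control on the right of each panel, replicate 1 as filled circles, replicate 2 as open squares and the mean of 2 libraries as a bar. Ddit4 and Errfi1 are lower in both surgery libraries than in both control libraries, while the receptors Nr3c1 and Nr3c2 overlap.

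The 4 libraries held 18002695 to 19318085 gene counts. In CPM, summed levels of 10 choroid plexus markers were 3705 and 4624 in the surgery libraries, against 54.7 and 3584 in the control libraries, and Kcnj13, which marks that epithelium, had 0 counts in control replicate 1. Summed levels of 8 neuronal markers were 10482 and 11141 CPM in the surgery libraries and 11776 and 9894 CPM in the control libraries, so neuronal RNA was present in all 4, and markers of dentate granule cells are given further on. Libraries also differed along the GC content of genes. Across genes with a mean log2 CPM above 3, the rank correlation between GC content and a library's deviation from the mean of all 4 was -0.65 and -0.057 in the surgery libraries, against 0.26 and 0.59 in the control libraries; genes are not independent replicates. The share of counts from mitochondrially encoded genes was 6.32% and 6.61% in the surgery libraries and 5.25% and 4.51% in the control libraries.

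Among the receptors, the glucocorticoid receptor gene Nr3c1 (ENSMUSG00000024431, chr18:39410545-39519421, minus strand, GRCm38) had 123 and 103 CPM in the surgery libraries, against 101 and 104 CPM in the control libraries. Surgery replicate 1 was the high library, and the other surgery library lay between both controls. The log2 fold change was 0.14 ± 0.12 (SE, n = 2 per group), with a 95% interval from -0.13 to 0.41 and an adjusted p of 0.727 in edgeR's quasi-likelihood test. With an offset for the trend with GC content in each library, it was -0.01. The mineralocorticoid receptor gene Nr3c2 (ENSMUSG00000031618, chr8:76899442-77245012, plus strand) had 224 and 211 CPM in the surgery libraries, against 254 and 201 CPM in the control libraries. Both surgery libraries lay within the range of the controls. Its log2 fold change was -0.06 ± 0.14 (SE), with a 95% interval from -0.36 to 0.24 (edgeR adjusted p = 0.901). Compared per length, in FPKM, the level of Nr3c1 over that of Nr3c2 was 0.480 and 0.425 in the surgery libraries, against 0.347 and 0.453 in the control libraries, and the groups overlapped.

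Fkbp5 encodes a cochaperone that binds the receptor complex, lowers its affinity for hormone and is itself induced by the receptor, a short negative feedback loop. It lies at chr17:28399094-28517527 (ENSMUSG00000024222, minus strand) and had 61.4 and 62.9 CPM in the surgery libraries, against 63.5 and 63.0 CPM in the control libraries. Both surgery libraries were just below both controls, and all 4 values were closer together than for any other of the 10 genes. The log2 fold change was -0.03 ± 0.11 (SE), with a 95% interval from -0.27 to 0.22 (edgeR adjusted p = 0.958). As a ratio of surgery to control, that interval runs from 0.830 to 1.16. It rests on variance that edgeR shares across genes as well as on these 4 libraries. Since the replicates are not known to be separate animals, it is no bound on a difference between animals.

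Ddit4 encodes REDD1, which restrains mTORC1, the kinase complex that drives protein synthesis and growth; besides glucocorticoids, hypoxia, DNA damage and energy stress are known to induce it. It is a short gene at chr10:59949669-59951834 (ENSMUSG00000020108, minus strand). Raw counts were 462 and 728 in the surgery libraries, against 990 and 1320 in the control libraries, which gave 24.0 and 40.5 CPM with surgery, against 52.5 and 71.3 CPM in control. The groups did not overlap: the higher surgery library was below the lower control library, and within each group replicate 2 was the higher. The means were 32.3 ± 11.7 CPM in the surgery group and 61.9 ± 13.3 CPM in the control group (SD, n = 2 each), a ratio of 0.521 with a 95% interval from 0.370 to 0.733. The log2 fold change was -0.94 ± 0.22 (SE), with an unadjusted p = 0.00155 and an adjusted p of 0.340 in edgeR's quasi-likelihood test, and DESeq2 gave an adjusted p of 0.397. Ddit4 had the largest distance from 0 of the 10 genes and their highest GC content, 57.9%, and libraries differed along GC content as given above. With the GC offset, its log2 fold change was -0.78 (unadjusted p = 0.00183, edgeR adjusted p = 0.510). Its RefSeq promoter, bases before the annotated start at chr10:59951835-59952020 (minus strand, GRCm38.p6), is shown for comparison with the Sgk1 starts given further on, since it holds no AGAACA or TGTTCT and has a GC content of 69.9%.
Ddit4 upstream: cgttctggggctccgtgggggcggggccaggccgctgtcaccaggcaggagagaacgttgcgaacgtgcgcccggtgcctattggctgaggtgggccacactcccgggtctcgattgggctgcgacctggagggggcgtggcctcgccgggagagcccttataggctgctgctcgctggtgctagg

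Sgk1 encodes a kinase that acts on ion channels, transporters and FOXO factors and is a known target of both receptors. It lies at chr10:21882184-21999903 (ENSMUSG00000019970, plus strand) and had 89.1 and 108 CPM in the surgery libraries, against 106 and 145 CPM in the control libraries. Surgery replicate 2 stood just above control replicate 1, so the groups overlapped. The means were 98.4 ± 13.2 CPM in the surgery group and 126 ± 27.7 CPM in the control group (SD, n = 2 each). The log2 fold change was -0.35 ± 0.16 (SE), with a 95% interval from -0.70 to -0.0042, unadjusted p = 0.0477 and an adjusted p of 0.497 in edgeR's quasi-likelihood test.

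Tsc22d3 encodes GILZ, a leucine zipper protein through which glucocorticoids dampen NF-κB and AP-1 signalling. It lies at chrX:140539528-140600659 (ENSMUSG00000031431, minus strand) and had 46.7 and 58.7 CPM in the surgery libraries, against 58.6 and 76.9 CPM in the control libraries. As for Sgk1, surgery replicate 2 was level with control replicate 1, surgery replicate 1 was the lowest and control replicate 2 the highest. The log2 fold change was -0.36 ± 0.16 (SE), with a 95% interval from -0.71 to -0.015, unadjusted p = 0.0425 and an edgeR adjusted p of 0.484. Errfi1 encodes an inhibitor that binds the kinase domain of the EGF receptor family and lies at chr4:150853919-150868892 (ENSMUSG00000028967, plus strand). It had 44.6 and 48.3 CPM in the surgery libraries, against 60.3 and 53.4 CPM in the control libraries. Here the groups did not overlap, and control replicate 1 was the highest library. Its log2 fold change was -0.29 ± 0.12 (SE), with a 95% interval from -0.57 to -0.018, unadjusted p = 0.0387 and an edgeR adjusted p of 0.479. With the GC offset the log2 fold changes were -0.40 for Tsc22d3, -0.35 for Errfi1 and -0.38 for Sgk1, at unadjusted p of 0.0283, 0.0118 and 0.0341, so the same 4 genes were below 0.05 with and without the offset.

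The other 3 response genes had intervals that included 0. Zbtb16 encodes PLZF, a zinc finger repressor (ENSMUSG00000066687, chr9:48654297-48836222, minus strand), and had 40.1 and 64.6 CPM in the surgery libraries, against 68.9 and 60.6 CPM in the control libraries. Surgery replicate 1 stood apart below the other 3 libraries, and surgery replicate 2 lay between both controls. The log2 fold change was -0.31 ± 0.19 (SE), with a 95% interval from -0.73 to 0.11 (edgeR adjusted p = 0.598). Cdkn1a encodes p21, an inhibitor of cyclin-dependent kinases that is also a p53 target (ENSMUSG00000023067, chr17:29090976-29100727, plus strand), and had 5.72 and 9.08 CPM in the surgery libraries, against 5.84 and 7.78 CPM in the control libraries. It was the only response gene with a fold change above 0, at a log2 value of 0.12 ± 0.27 (SE) and a 95% interval from -0.47 to 0.71 (edgeR adjusted p = 0.911). In both groups replicate 2 was the higher for this gene. Plin4 encodes perilipin 4, a lipid droplet coat protein (ENSMUSG00000002831, chr17:56100591-56109803, minus strand), and was the sparsest, with 51 and 62 raw counts in the surgery libraries, against 60 and 94 in the control libraries. The libraries overlapped, and the log2 fold change was -0.44 ± 0.31 (SE), with a 95% interval from -1.13 to 0.26 (edgeR adjusted p = 0.655). Plin4 overlaps Hdgfl2, a gene on the opposite strand with 1093 and 1038 counts in the surgery libraries and 1335 and 1379 in the control libraries; whether the counting used strand is not given in the sources used here, so reads of these genes may be mixed. The same holds for Nr3c2, which overlaps the opposite-strand Gm10649 (103 and 112 counts in the surgery libraries and 83 and 97 in the control libraries). Errfi1 overlaps the antisense RNA 1700045H11Rik, Fkbp5 overlaps AC154912.1 and Gm22146, and Cdkn1a overlaps AC167363.2, all on the opposite strand. Reads may be mixed there too, but no counts are listed for these models, so their levels are not known.

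**Figure D2:**
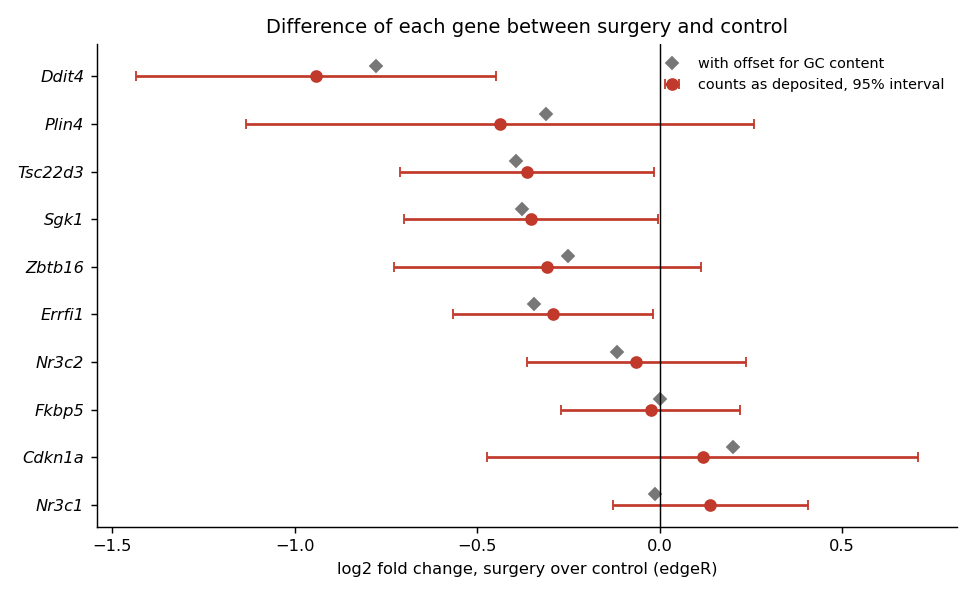
Log2 fold change of each gene, surgery over control, from edgeR on the counts as deposited (circles, bars give the 95% interval) and with an offset for GC content (diamonds). The intervals of Ddit4, Tsc22d3, Sgk1 and Errfi1 lie below 0 before adjustment over all genes, with Ddit4 at -0.94, and the diamonds of those 4 genes are also below 0.

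Per length, averaged over all 4 libraries, Nr3c2 had the highest level with 34.3 FPKM, followed by Ddit4 (26.9), Sgk1 (22.9), Nr3c1 (14.5), Errfi1 (14.4), Tsc22d3 (13.9), Zbtb16 (11.1), Fkbp5 (9.84), Cdkn1a (3.19) and Plin4 (0.623 FPKM). Neighbours in that order whose FPKM ranges over the 4 libraries did not overlap were Sgk1 and Nr3c1, Fkbp5 and Cdkn1a, and Cdkn1a and Plin4. Tsc22d3 was above Zbtb16 within each library although their ranges overlapped, and the other neighbours overlapped without such an order. The rank of Ddit4 differed between groups, since its FPKM was 13.6 and 22.8 in the surgery libraries and 29.4 and 41.8 in the control libraries.

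Surgery replicate 1 was the lowest library in 8 of 8 response genes. Control replicate 2 was the highest in 4 of them, control replicate 1 in 3 and surgery replicate 2 in 1. The shares of all tested genes with each library lowest or highest are not given here. These counts can therefore not be read as a trait of the response genes. Median GC content was 52.6% for the 8 genes and 49.4% for all genes tested. The summed level of the 8 genes was 314 and 395 CPM in the surgery libraries, against 419 and 483 CPM in the control libraries, so surgery replicate 2 was closer to control replicate 1 than to the other surgery library. Surgery replicate 1 and control replicate 2, at both ends of this order, were also the libraries at both ends of the GC trend; the part of that trend in the result was measured only through the GC offset given above.

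Leaving out each library in turn moved these genes unequally. Such fits have 1 library in an arm and assume that it varies like the other group. For Ddit4 the log2 fold change was -0.61 without surgery replicate 1, -1.36 without surgery replicate 2, -1.14 without control replicate 1 and -0.70 without control replicate 2. It passed the edgeR adjusted threshold in each of these 4 fits, with adjusted p of 0.0222, 5.86e-13, 0.0265 and 0.0427 in that order. Without surgery replicate 2, which leaves the lowest library to stand for surgery, Sgk1 (log2 fold change -0.49, edgeR adjusted p = 0.0193), Tsc22d3 (-0.54, 0.0125) and Zbtb16 (-0.69, 0.000692) passed as well, in a fit that called 260 genes higher and 474 lower. The other fits called 51 genes higher and 58 lower without surgery replicate 1, 11 higher and 40 lower without control replicate 1, and 226 higher and 38 lower without control replicate 2. Without control replicate 2, Sgk1 was at -0.10 and Tsc22d3 at -0.15 on the log2 scale. Without surgery replicate 1, Zbtb16 was at 0.0018 and Tsc22d3 at -0.20. The 2 genes whose groups did not overlap by a clear margin, Ddit4 and Errfi1, had a fold change below 0 in all 4 fits, with Errfi1 between -0.37 and -0.20, and so did Sgk1, Tsc22d3, Plin4 and Fkbp5. Without control replicate 1, the library with almost no choroid plexus RNA, Sgk1 was at -0.56, Tsc22d3 at -0.54 and Errfi1 at -0.20; control replicate 2, the highest library for Sgk1, Tsc22d3 and Ddit4, then stood alone for control. The part of choroid plexus RNA in the result was not tested.

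**Figure D3:**
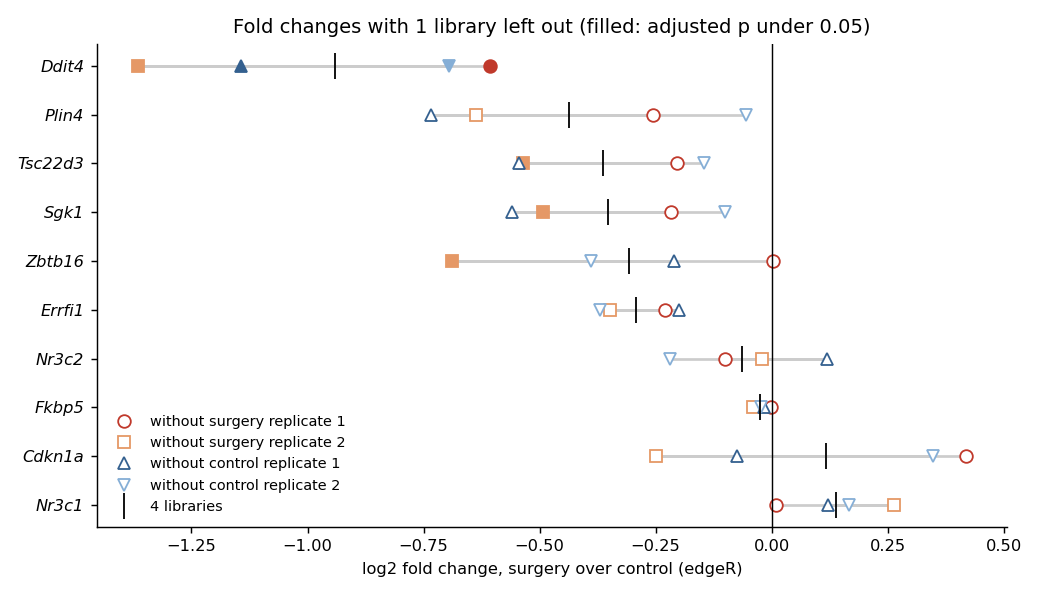
Log2 fold change of each gene, surgery over control, with all 4 libraries (black tick) and with 1 library left out (symbols by the library left out, filled where the edgeR adjusted p was under 0.05). Ddit4 stays between -1.36 and -0.61, while Zbtb16 runs from -0.69 to 0.0018.

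Sgk1 has several alternative starts, and its transcripts were listed separately. Estimated transcript counts are on a larger scale than gene counts. Summed over Sgk1 transcripts they were 6454 and 7206 in the surgery libraries, where the gene counts were 1714 and 1935. In the control libraries they were 7392 and 9938, where the gene counts were 1998 and 2686. The estimated counts of its main transcript, Sgk1-202, were 4862 and 5243 in the surgery libraries, against 5859 and 8530 in the control libraries. All surgery values of Sgk1-202 lay below both controls, with a log2 fold change of -0.49 ± 0.27 (SE, n = 2 per group; edgeR unadjusted p = 0.162). Sgk1-201, whose first exon starts 776 bases downstream of that of Sgk1-202, had 518 and 914 estimated counts in the surgery libraries, against 221 and 378 in the control libraries, so both surgery libraries lay above both controls. Its log2 fold change was 1.29 ± 0.57 (SE; unadjusted p = 0.0977, edgeR adjusted p = 0.952). Both transcripts have 12 exons, and 10 of them have the same ends in both, so only reads from the remaining exons tell them apart. Sgk1-202 over Sgk1-201 was 9.39 and 5.74 in the surgery libraries, against 26.5 and 22.6 in the control libraries. Neither transcript passed after adjustment (edgeR adjusted p = 0.987 for Sgk1-202 and 0.952 for Sgk1-201). Estimates for Nr3c2, Plin4 and Zbtb16 moved as a whole between isoforms within a group, as given at the end. Whether the Sgk1 estimates are unstable in that way was not tested. As a share of all estimated Sgk1 counts, Sgk1-202 made up 74.0% ± 1.82 in the surgery group and 82.5% ± 4.65 in the control group, and Sgk1-201 made up 10.4% ± 3.29 in the surgery group and 3.40% ± 0.576 in the control group (SD, n = 2 each).

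The start furthest upstream belongs to Sgk1-204, which begins 111706 bases before Sgk1-202. It had 610 and 555 estimated counts in the surgery libraries, against 633 and 602 in the control libraries, and these unscaled counts overlapped. In FPKM, it had 2.61 and 2.53 in the surgery libraries, against 2.77 and 2.80 in the control libraries, so the groups did not overlap. The log2 fold change of Sgk1-204 was -0.06 ± 0.33 (SE). Sgk1-203, which begins 1667 bases before Sgk1-202, had 28 and 27 estimated counts in the surgery libraries, against 4 and 1 in the control libraries, and was the only one of the 9 Sgk1 transcripts tested with an unadjusted p under 0.05 (log2 fold change 3.43 ± 0.90, unadjusted p = 0.0241, edgeR adjusted p = 0.629). Over all 65665 transcripts tested, 2.69% were higher and 3.3% lower in the surgery group at that threshold, and 0 passed after adjustment. Sgk1-212, which shares the start of Sgk1-203 and was too sparse to be tested, had 6 and 14 estimated counts in the surgery libraries and 0 in both control libraries; it was chosen after its values were seen. Of the remaining tested transcripts, Sgk1-207, Sgk1-206, Sgk1-209 and Sgk1-211 overlapped. Both surgery libraries lay below both controls for Sgk1-208 (log2 fold change -0.68 ± 0.68 SE). Sgk1-207 had 292 and 153 estimated counts in the surgery libraries and 260 and 207 in the control libraries. Sgk1-206 had 72 and 144 with surgery and 71 and 102 in control. Sgk1-209 had 22 and 56 with surgery, against 243 and 19 in control, a spread set by control replicate 1. Sgk1-208 had 26 and 67 with surgery, against 71 and 82 in control, and Sgk1-211 had 16 and 26 with surgery, against 20 and 16 in control.

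**Figure D4:**
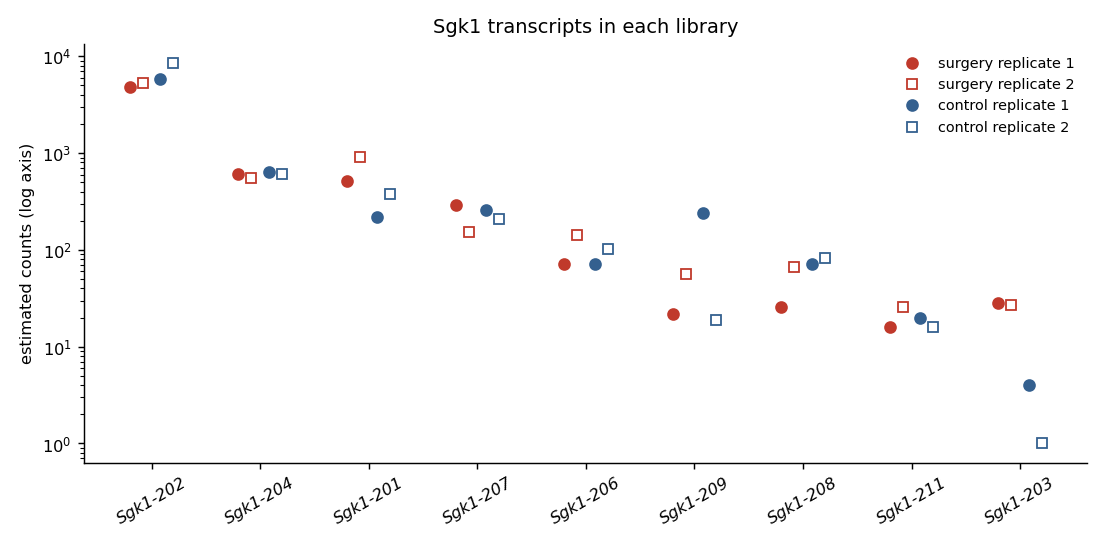
Estimated counts of the 9 tested Sgk1 transcripts in each library on a log axis, surgery replicates in red left of the control replicates in blue, replicate 1 filled and replicate 2 open. Sgk1-202, the most abundant, is lower in both surgery libraries (4862 and 5243) than in both control libraries (5859 and 8530), and Sgk1-201 and Sgk1-203 are higher.

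The bases before the starts of those 3 transcripts are shown because the starts lie close together in the genome and their transcripts differed between the groups in opposite directions, with none past the adjusted threshold. They come from RefSeq, GRCm38.p6, plus strand: Sgk1-202 at chr10:21993640-21993889, Sgk1-201 at chr10:21994416-21994665 and Sgk1-203 at chr10:21991973-21992222, each 250 bases long. Capitals mark AGAACA or TGTTCT half-sites and the receptor palindrome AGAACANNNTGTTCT.
Sgk1-202 upstream: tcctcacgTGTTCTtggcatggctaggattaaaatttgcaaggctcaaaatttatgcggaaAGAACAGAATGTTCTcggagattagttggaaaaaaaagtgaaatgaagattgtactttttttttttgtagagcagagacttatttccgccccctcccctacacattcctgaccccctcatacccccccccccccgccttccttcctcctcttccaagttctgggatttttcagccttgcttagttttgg
Sgk1-201 upstream: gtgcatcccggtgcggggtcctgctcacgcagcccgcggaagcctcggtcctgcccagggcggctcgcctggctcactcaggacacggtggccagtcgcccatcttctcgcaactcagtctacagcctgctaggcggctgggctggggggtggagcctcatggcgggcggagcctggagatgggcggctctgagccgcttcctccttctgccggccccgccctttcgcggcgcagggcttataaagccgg
Sgk1-203 upstream: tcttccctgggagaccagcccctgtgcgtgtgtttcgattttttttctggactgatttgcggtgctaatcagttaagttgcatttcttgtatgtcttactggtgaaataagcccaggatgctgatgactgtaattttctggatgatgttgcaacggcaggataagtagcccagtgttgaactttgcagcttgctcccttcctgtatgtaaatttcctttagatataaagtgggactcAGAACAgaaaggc

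The window before Sgk1-202 holds the full palindrome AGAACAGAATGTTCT with its first base at -189 from the start, and a further TGTTCT at -242. Both strands were searched, in windows of 250 bases before and 50 after each start. The palindrome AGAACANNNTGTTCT occurred in 3 of 32851 RefSeq windows (0.0091%), the shorter core GNACANNNTGTNC, which lies inside it, in 156 windows (0.475%) and the half-site in 6233 windows (19.0%). Among 17 windows of 8 of the 10 genes, the palindrome and the core occurred only before Sgk1-202, and half-sites in 4 windows, of Sgk1 and Tsc22d3. The window before Sgk1-203 has a half-site at -13, and that before Sgk1-201 has none and a GC content of 70.4%, against 44.8% before Sgk1-202 and 43.6% before Sgk1-203. No window was matched for Nr3c1 and Zbtb16. A match in letters is a description of these windows, and no receptor binding was measured.

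Over the 10 genes, 42 transcripts were listed and 32 tested, and Sgk1-203 was the only one with an unadjusted p under 0.05. Ddit4 has a single listed transcript, Ddit4-201, with 1816 and 2859 estimated counts in the surgery libraries, against 3869 and 5173 in the control libraries, in the same order of libraries as its gene counts (log2 fold change -0.92 ± 0.37 SE, edgeR unadjusted p = 0.0790). Nr3c1-203, the main transcript of the glucocorticoid receptor gene, had 8102 and 5885 estimated counts in the surgery libraries, against 6332 and 6338 in the control libraries, again with surgery replicate 1 high. Tsc22d3-201 had 526 and 1947 with surgery, against 2180 and 1900 in control, so that only surgery replicate 1 was low. The gene counts of Tsc22d3, which are on a smaller scale, were 898 and 1054 with surgery, against 1104 and 1423 in control. In proportion, they did not show a drop of that size. These transcripts were chosen after their values were seen.

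Around the receptors, genes were grouped by role into lists, each described by its counts at the unadjusted threshold, beside the shares of all genes given above. The lists, too, were chosen with earlier results of these data known. Of 11 chaperones and cochaperones that fold the receptors, 0 were higher and 0 lower with an unadjusted p below 0.05 in edgeR, with a median log2 fold change of 0.0046. Hspa8, a constitutive heat shock cognate, had 1487 and 1476 CPM in the surgery libraries, against 1263 and 1132 CPM in the control libraries (log2 fold change 0.31 ± 0.16 SE, unadjusted p = 0.0889). Hsp90aa1, an isoform of the chaperone that holds the receptor ready for hormone, had 1190 and 1019 CPM with surgery, against 947 and 919 CPM in control (0.24 ± 0.16). Ptges3, its cochaperone p23, and Ppid, an immunophilin, were also above both controls in both surgery libraries, at log2 fold changes of 0.20 and 0.13. With the GC offset the log2 fold changes were 0.22 for Hspa8, 0.12 for Hsp90aa1, 0.07 for Ptges3 and -0.03 for Ppid, whose direction turned. Of 11 coregulators, 0 were higher and 0 lower at that threshold, with a median of 0.04.

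Hormone handling in the tissue was covered by 8 genes of corticosteroid metabolism and transport, of which 6 were tested, 1 higher and 0 lower with an unadjusted p below 0.05. The higher one was Akr1c18, a steroid dehydrogenase best known for inactivating progesterone, with 4.26 and 2.34 CPM in the surgery libraries, against 1.80 and 1.41 CPM in the control libraries (log2 fold change 1.04 ± 0.37 SE, edgeR unadjusted p = 0.0185). Abcb1a, a P-glycoprotein that exports steroids at the blood-brain barrier, had 39.5 and 39.2 CPM with surgery, against 30.7 and 34.0 CPM in control (0.28 ± 0.13). It lay above both controls in both surgery libraries, and the summed level of 10 endothelial markers was 297 and 291 CPM with surgery, against 243 and 289 CPM in control; the part of those cells in the result was not tested. Hsd11b1, the enzyme that regenerates active corticosterone from its inert form, had 28.3 and 25.6 CPM with surgery and 27.7 and 22.7 CPM in control, and overlapped. In the list of the hypothalamic and pituitary stress axis, 6 of 11 genes were tested, 1 higher and 0 lower. That one was Pomc, the precursor of adrenocorticotropic hormone, at 2.86 and 1.78 CPM in the surgery libraries, against 0.955 and 1.51 CPM in the control libraries (log2 fold change 0.91 ± 0.41 SE, unadjusted p = 0.0480), near the lower end of what was tested.

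A further 36 genes known to be induced by glucocorticoids, outside the 8 described above, were all tested. At an unadjusted p under 0.05 in edgeR, 5 were lower (Per1, Jdp2, Cebpb, Arl4d and Klf15) and 1 was higher (Gjb6) in the surgery group, 0 passed after adjustment, and the median log2 fold change of the list was -0.03. That median was -0.22 without surgery replicate 2 and -0.11 without control replicate 1. Both surgery libraries lay below both controls in 8 of the 36, where 22.3% of all tested genes did, and above in 2, where 20.3% did, so the count of 8 was near the share of all genes. Per1, a circadian clock repressor whose promoter responds to hormone, had 63.3 and 99.6 CPM in the surgery libraries, against 121 and 131 CPM in the control libraries (log2 fold change -0.63 ± 0.18 SE, unadjusted p = 0.00515). Jdp2, a bZIP repressor of the AP-1 family, had 19.6 and 22.9 CPM with surgery, against 29.1 and 31.7 CPM in control (-0.51 ± 0.15). Cebpb, a bZIP activator of the acute phase response, had 9.15 and 9.97 CPM with surgery, against 14.2 and 14.7 CPM in control (-0.60 ± 0.18), and with the GC offset its log2 fold change was -0.23 (unadjusted p = 0.199). As for Ddit4, the groups of these 3 genes did not overlap, and surgery replicate 1 was the lowest library. Arl4d, a small GTPase, had 5.72 and 6.96 CPM with surgery, against 8.07 and 13.9 CPM in control (-0.79 ± 0.27). Klf15, a Krüppel-like factor, was at a log2 fold change of -0.49 ± 0.20 and Gjb6, the astrocytic connexin 30, at 0.31 ± 0.12; both were picked once their values were known. Without surgery replicate 1 the list median was -0.023, and without control replicate 2 it was -0.021.

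**Figure D5:**
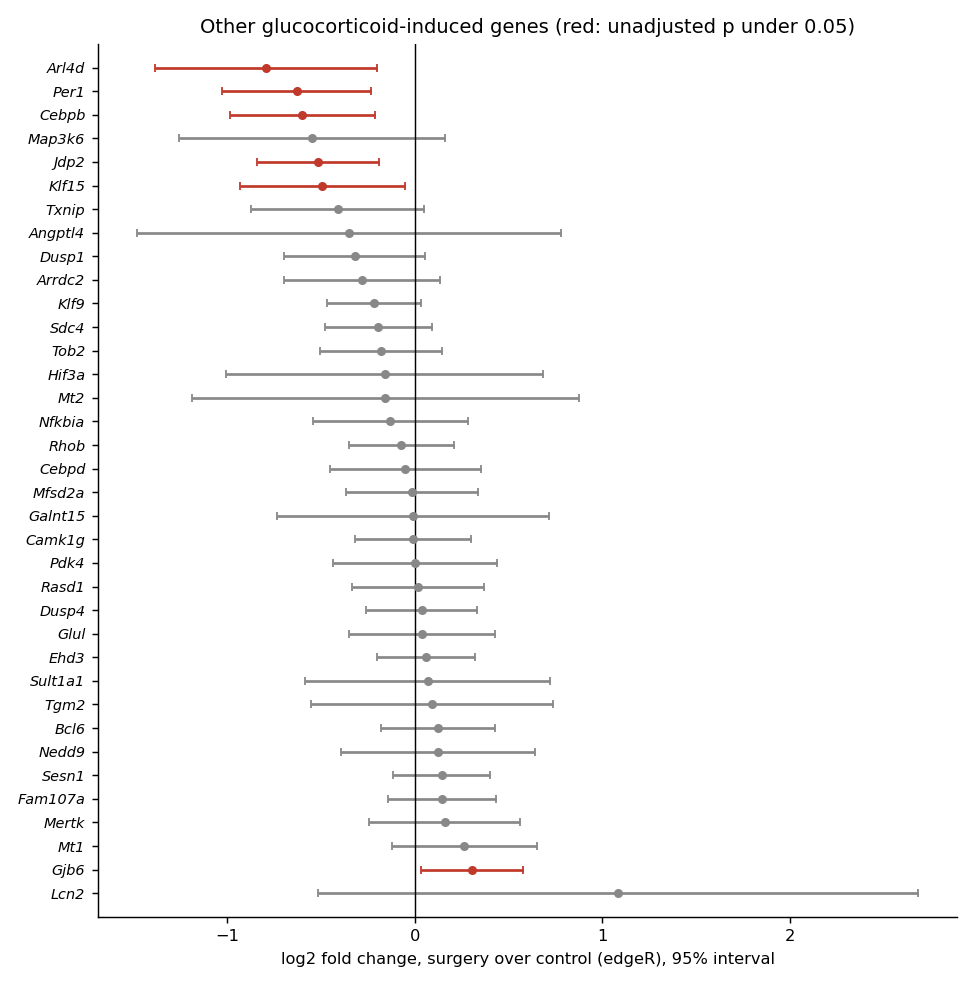
Log2 fold change with its 95% interval, surgery over control, of 36 further glucocorticoid-induced genes, ordered by fold change, with those of an unadjusted p below 0.05 in red. Per1 (-0.63), Jdp2, Cebpb, Arl4d and Klf15 lie below 0 and Gjb6 (0.31) above. No other gene of the list had an unadjusted p below 0.05 in edgeR, and the list median was -0.03.

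Lists for the downstream roles of single genes showed few differences. Of 13 partners of REDD1 and p21 in mTORC1 control and growth arrest, 1 was lower and 0 higher with an unadjusted p below 0.05 in edgeR: Sesn2, a stress-induced inhibitor of mTORC1, had 17.0 and 19.7 CPM in the surgery libraries, against 23.9 and 22.7 CPM in the control libraries (log2 fold change -0.35 ± 0.15 SE), and -0.16 with the GC offset. Tsc1, through whose complex REDD1 acts, had 64.5 and 79.5 CPM with surgery, against 83.0 and 87.1 CPM in control (-0.24 ± 0.13, unadjusted p = 0.0859), and did not overlap. Among 10 relatives and substrates of SGK1, 0 were higher and 0 lower. The closest was Sgk3, an endosomal relative, with 18.6 and 18.8 CPM with surgery, against 12.2 and 16.3 CPM in control (0.39 ± 0.18, unadjusted p = 0.0541), the opposite direction to Sgk1. Nedd4, a ubiquitin ligase, was at 0.25 ± 0.14, with 653 and 626 CPM with surgery, against 558 and 520 CPM in control.

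Of 9 tested perilipin and lipid droplet genes, 1 was lower and 0 higher: Dgat2, which makes triglyceride for droplets, had 69.6 and 72.9 CPM in the surgery libraries, against 90.8 and 86.9 CPM in the control libraries (log2 fold change -0.32 ± 0.11 SE, unadjusted p = 0.0146 in edgeR), and -0.19 with the GC offset. Sodium transport genes that mineralocorticoid receptor signalling controls in the kidney were a list of 9, of which 8 were in the table and 5 tested, with 0 higher and 0 lower. Of 12 inflammatory genes that glucocorticoids repress, 7 were tested, with 0 higher and 0 lower and a median log2 fold change of -0.25. The sign of that median turned without surgery replicate 1 (0.14) and on FPKM for genes with a mean of at least 1 FPKM (0.26), and it was -0.06 without control replicate 1. Ptgs2, the inducible cyclooxygenase, had 39.2 and 31.9 CPM with surgery, against 31.0 and 26.0 CPM in control (0.32 ± 0.15, unadjusted p = 0.0640). Vcam1, an endothelial adhesion molecule, had 35.8 and 37.9 CPM with surgery, against 24.1 and 34.0 CPM in control (0.34 ± 0.17). Both lay above both controls, while the median of the list was below 0. Mmp9 and Nlrp3, both with low counts, were at log2 fold changes of -0.32 and -0.56.

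Several of the 10 genes are also known from glia and vessels, so marker levels are given beside them. Summed levels of 10 oligodendrocyte markers were 5261 and 3712 CPM in the surgery libraries, against 5162 and 5414 CPM in the control libraries, with 0 higher and 2 lower genes (unadjusted p under 0.05 in edgeR) and a median log2 fold change of -0.25. Surgery replicate 2 was the low library there, whereas surgery replicate 1 was the low one for the response genes. Astrocyte markers summed to 5493 and 5327 CPM with surgery and 5612 and 5011 CPM in control, with 1 higher and 0 lower. Microglial markers summed to 369 and 296 CPM with surgery and 330 and 306 CPM in control, with 0 higher and 1 lower. Mural and meningeal markers summed to 343 and 384 CPM with surgery and 291 and 350 CPM in control, with 1 higher and 0 lower. Among the markers given further above, 2 endothelial, 1 choroid plexus and 0 neuronal markers were higher and 0 were lower. Of 6 markers of dentate granule cells, a class known for carrying both receptors, 4 were higher and 0 lower at the same threshold. Both surgery libraries lay above both controls for 5 of the 6, where 20.3% of all tested genes did. They lay below for 1, where 22.3% did. The dentate sums were 471 and 465 CPM with surgery, against 411 and 378 CPM in control. CA1 markers summed to 751 and 749 CPM with surgery, against 859 and 765 CPM in control, and CA2 and CA3 markers to 196 and 195 CPM with surgery, against 221 and 214 CPM in control, with 0 higher and 1 lower in each list. Blood markers summed to 50.1 and 63.0 CPM with surgery, against 49.3 and 110 CPM in control, with 0 higher and 1 lower and a median log2 fold change of -0.37; control replicate 2 was the high library, as it was for Sgk1, Tsc22d3 and Ddit4. The part of these cell types in the levels of the 10 genes was not tested.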

How the data were processed

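Hippocampal RNA of 2 surgery and 2 control libraries was used, grouped by the labels. Alignment was to mm10 with HISAT2 and counting by gene used HTSeq, whose version the authors name as 5.4.2. The deposited tables hold raw gene counts, estimated counts per transcript and FPKM values of both. The deposited FPKM equal counts per length and column total within 0.016%. The tool for the transcript table is not given in the sources used here. Gene counts per library were 18002695 to 19318085 and transcript counts 69394548 to 75437127. Intervals cover the spread between libraries, with variance that edgeR shares across genes (10.6 degrees of freedom for each of the 10 genes). Estimated counts were rounded to whole numbers and are printed without scaling to library size.

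Surgery was tested against control on the counts, using edgeR 4.0.16 under R 4.3.3 (TMM, filterByExpr with a minimum count of 10 and total of 15, quasi-likelihood test, two-sided), with Benjamini-Hochberg adjustment over 17236 genes or 65665 transcripts at 0.05. SE is the log2 fold change divided by the root of F. Positions, exons and GC content are from GENCODE M21, in which 31010 of 31060 gene IDs were found, and promoters from RefSeq. Alternatives were DESeq2 1.42.0, limma 3.58.1 (voom, and trend on log2 FPKM with a pseudocount of 1 or 0.1), RLE factors, other count filters, summed transcripts, a replicate block, a GC offset (loess span 0.3) and leaving out each library. The scripts were tested on simulated data. The genes and lists were chosen with earlier results of these data known. Named were all 10 genes, up to 4 genes per list by smallest p, and Sgk1 transcripts with a mean of at least 10 estimated counts; others are said to be chosen later.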

Additional observations from a re-analysis of the deposited data

How the results depend on the processing

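Of the 10 genes, 0 passed the adjusted threshold in edgeR, 1 (Ddit4) with no filter on low counts, and between 1 and 4 when each library was left out. No filter called 156 genes higher and 239 lower in all. The replicate numbers are not stated to mark a shared litter, batch or day, and same-numbered libraries deviated with r = 0.13 over 17236 genes. With the replicate number as a block, 1 gene passed (Ddit4, log2 fold change -0.97, edgeR adjusted p = 0.0184) among 6 genes higher and 33 lower, and 0 with the block and the GC offset together (Ddit4, adjusted p = 0.0840); the block changed no other call of the 10 genes. The count of 4 lower genes at an unadjusted p under 0.05 was 3 with DESeq2, RLE factors and limma-voom. It was 2 in all 3 limma fits on FPKM, 1 with gene counts summed from transcripts and 5 with no filter on low counts. It also changed with the library left out, and of those fits the one without surgery replicate 1 gave the lowest. These alternatives were chosen after seeing the data. Over all genes tested, the lower share was 2.4% with DESeq2, 5.5% with RLE factors and 5.9% with limma-voom. It was 6.02% to 6.81% on FPKM, 3.02% with summed transcripts and 4.56% with no filter. Signs turned for Nr3c1 with the GC offset (-0.012, and -0.012 with the block as well), Fkbp5 (0.00080 with the offset, 0.00098 with both) and Zbtb16 (0.18 with counts summed from transcripts). Over the fits that left out a library, log2 fold changes ran from -0.22 to 0.12 for Nr3c2, -0.69 to 0.0018 for Zbtb16 and -0.25 to 0.42 for Cdkn1a. For transcripts they ran from -0.55 to 0.31 for Sgk1-207, -0.28 to 0.79 for Sgk1-206, -2.59 to 1.06 for Sgk1-209 and -0.18 to 0.59 for Sgk1-211. The cause was not tested. No Sgk1 transcript passed under any alternative run. With 2 libraries per group, intervals are wide, and Plin4, Cdkn1a and Sgk1-203 rest on low counts.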

Other observations

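Some transcript estimates moved as a whole from one isoform to another within a group, which the gene counts did not show. Nr3c2-203 had 14183 and 0 estimated counts in the surgery libraries, against 12435 and 12468 in the control libraries, while Nr3c2-204 had 2198 and 14577 with surgery, against 5907 and 2379 in control, so surgery replicate 2 was assigned almost wholly to Nr3c2-204. Plin4-201 had 0 and 236 estimated counts in the surgery libraries and 0 in both control libraries, while Plin4-202 had 199 and 0 with surgery, against 210 and 320 in control. Zbtb16-201 had 933 and 2161 with surgery, against 1410 and 0 in control, while Zbtb16-202 had 347 and 996 with surgery, against 838 and 1759 in control. The gene level counts of Nr3c2, on a smaller scale, were 4305 and 3796 in the surgery libraries and 4794 and 3711 in the control libraries. These isoforms were chosen after their values were seen.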
